A study of Mus musculus with 6 samples.

Results

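The dystrophin complex genes described here are *Dmd* (dystrophin), *Utrn* (utrophin), *Dag1* (dystroglycan), *Sgca*, *Sgcb* and *Sgcd* (α-, β- and δ-sarcoglycan), *Dtna* (α-dystrobrevin) and *Sspn* (sarcospan). They were chosen by their roles, with earlier results of these data known, and taken from the expression table by gene symbol. All 8 were among the 16448 genes listed, and all 8 were among the 11364 genes tested, which were those that reached 10 in 3 or more samples. No syntrophin gene is among the 8, and *Sntb1* and *Sntb2* are described with the wider list of interacting genes.

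RNA-seq was carried out on cardiomyocytes (CMs) isolated by enzymatic perfusion from mouse ventricles, at an age of 8 to 12 weeks and on a C57BL/6 background. The 3 Cpt1bcKO samples came from mice with αMHC-Cre and Cpt1b fl/fl, in which Cpt1b, the muscle form of the carnitine palmitoyltransferase that admits long-chain fatty acids to mitochondria, is deleted in CMs. The 3 CtrlCre samples came from littermates with αMHC-Cre and Cpt1b+/+, so both groups carry the transgene. The promoter drives Cre in CMs from embryonic stages onwards, so the adult values compare hearts that developed with and without the gene and do not separate early from late differences.

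Dystrophin is a long rod that ties cortical actin to dystroglycan in the muscle membrane, and dystroglycan in turn binds laminin and related proteins outside the cell. The sarcoglycans and sarcospan form a membrane subcomplex that stabilizes this link, whereas dystrobrevin and the syntrophins dock signalling proteins on the inside. Utrophin is the close paralogue of dystrophin that can take its place. Loss of dystrophin or of some of the sarcoglycans causes muscular dystrophy, with cardiomyopathy in some of these forms.

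The annotated 5′ starts of 4 members are shown. *Sspn*, *Sgcb* and *Dag1* were lower in every Cpt1bcKO sample than in any CtrlCre sample, whereas the *Dmd* values of the groups overlapped. *Dtna* and *Sgcd* were also lower in every Cpt1bcKO sample. *Dtna* had no entry among the promoters, and the *Sgcd* window is not printed. Each run is the RefSeq window on GRCm38.p6 from 250 bases before to 50 bases after the first listed start, written 5′ to 3′ on the gene's own strand, with capitals for motif matches. The *Dmd* window lies on the plus strand at chrX:82948620-82948919, that of *Sspn* on the plus strand at chr6:145931623-145931922, that of *Sgcb* on the minus strand at chr5:73647688-73647987 and that of *Dag1* on the minus strand at chr9:108263909-108264208.
Dmd: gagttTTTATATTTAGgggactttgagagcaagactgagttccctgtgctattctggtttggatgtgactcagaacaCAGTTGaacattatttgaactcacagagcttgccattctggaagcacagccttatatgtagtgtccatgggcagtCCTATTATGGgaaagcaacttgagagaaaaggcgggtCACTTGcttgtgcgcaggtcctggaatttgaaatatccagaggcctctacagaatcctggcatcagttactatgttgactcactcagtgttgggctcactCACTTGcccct
Sspn: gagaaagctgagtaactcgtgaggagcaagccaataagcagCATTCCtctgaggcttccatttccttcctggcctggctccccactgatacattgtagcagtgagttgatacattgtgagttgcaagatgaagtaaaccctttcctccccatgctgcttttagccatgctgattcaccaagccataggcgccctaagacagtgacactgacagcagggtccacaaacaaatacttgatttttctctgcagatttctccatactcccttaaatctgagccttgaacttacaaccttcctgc
Sgcb: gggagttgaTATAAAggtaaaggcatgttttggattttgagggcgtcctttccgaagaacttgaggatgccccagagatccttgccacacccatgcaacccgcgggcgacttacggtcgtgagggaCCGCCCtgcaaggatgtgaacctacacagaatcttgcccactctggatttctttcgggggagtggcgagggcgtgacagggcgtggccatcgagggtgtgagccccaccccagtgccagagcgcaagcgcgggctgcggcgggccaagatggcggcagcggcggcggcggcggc
Dag1: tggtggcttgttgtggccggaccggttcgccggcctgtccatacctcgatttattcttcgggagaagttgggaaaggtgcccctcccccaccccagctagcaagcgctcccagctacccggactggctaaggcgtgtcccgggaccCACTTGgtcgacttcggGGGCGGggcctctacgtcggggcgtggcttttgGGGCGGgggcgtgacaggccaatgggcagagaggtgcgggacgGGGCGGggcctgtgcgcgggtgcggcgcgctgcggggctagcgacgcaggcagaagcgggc

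The *Dmd* window held 3 E-boxes (CANNTG, bound by myogenic and other bHLH factors), 1 CArG box, 1 MEF2 site and 1 TATA box (TATAAA), the last overlapping the MEF2 match. The *Sspn* window held 1 MCAT element (CATTCC), the *Sgcb* window 1 GC box (GGGCGG) and 1 TATA box. The *Dag1* window held 1 E-box and 3 GC boxes. The *Sgcd* window, which is not printed, held 2 E-boxes, 1 MCAT element and 1 GC box. Both strands were searched. Among all 32851 promoter windows of the same length, 72.3% held an E-box, 35.7% a GC box, 14.7% an MCAT element, 13.6% a TATA box, 3.2% a MEF2 site and 1.6% a CArG box. An ERR element (TNAAGGTCA, found in 1.3% of windows) and the ETS core TTCCGG (14.9%) were not in any of the 10 windows of the 7 members with an entry. GC content was 45.7% in the *Dmd* window, 47.0% in *Sspn*, 62.7% in *Sgcb* and 69.7% in *Dag1*, against a median of 52.7% over all windows.

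The values are read counts that were divided by a size factor for each sample and rounded, called normalized counts below. *Cpt1b* was 1861, 893 and 1443 in CtrlCre samples 1 to 3 and 211, 353 and 285 in Cpt1bcKO samples 1 to 3, a log2 fold change of −2.27 (adjusted p = 0.00338, limma). Values summed to between 13393411 and 31722217 per sample, of which the mitochondrial rRNA *mt-Rnr2* took 61.8% to 80.9%. The remainder, once genes encoded by mitochondria and rRNA genes were taken out, came to 3438589 to 3551692 in CtrlCre and 3146414 to 3315777 in Cpt1bcKO. It was thus lower in every Cpt1bcKO sample than in any CtrlCre sample. A single read was worth 0.682 in Cpt1bcKO sample 1 and 1.29 in Cpt1bcKO sample 3, and could not be resolved in the other samples, so *Sgca*, the member with the lowest values, rests on about 195 and 101 reads there. *Xist*, expressed from the inactive X chromosome, was 957 and 1080 in the samples numbered 1 and between 23 and 78 in the other 4. *Dmd* is X-linked, and its results are therefore also given without the samples numbered 1.

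Of the 8 members, 7 were lower and 1 (*Utrn*) was higher in Cpt1bcKO than in CtrlCre CMs, and their median log2 fold change was −0.34, against −0.0013 over all genes tested; *Dmd* and *Sgca* turned positive when samples were scaled to the sum without mitochondrial-encoded and rRNA genes or when both samples numbered 1 were left out. None of the 8 passed limma's test at an adjusted p below 0.05, a threshold that 1.57% of all genes tested passed (75 higher and 103 lower). At an unadjusted p below 0.05, 4 members were lower (*Sspn*, *Dtna*, *Sgcb* and *Dag1*) against 7.22% of all genes, and 0 were higher against 6.66%. With scaling to the sum without mitochondrial-encoded and rRNA genes this became 2 lower (*Sspn* and *Dtna*) and 1 higher (*Utrn*). The shares of 7.22% and 6.66% do not apply to that scaling. Under it 1720 of 11246 genes had an unadjusted p below 0.05 in either direction, and the median of all genes was 0.11. In 5 members, these 4 and *Sgcd*, every Cpt1bcKO value lay below every CtrlCre value, which was the case in 9.6% of all genes. The members were chosen with earlier results of these data known, so the shares over all genes are a description and no test. The study's methods describe biological replicates from mice, whereas the labels give only a number, and the p-values measure the spread between these 6 samples. In bulk RNA, fewer CMs in a preparation and less RNA per CM cannot be told apart.

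**Figure D1:**
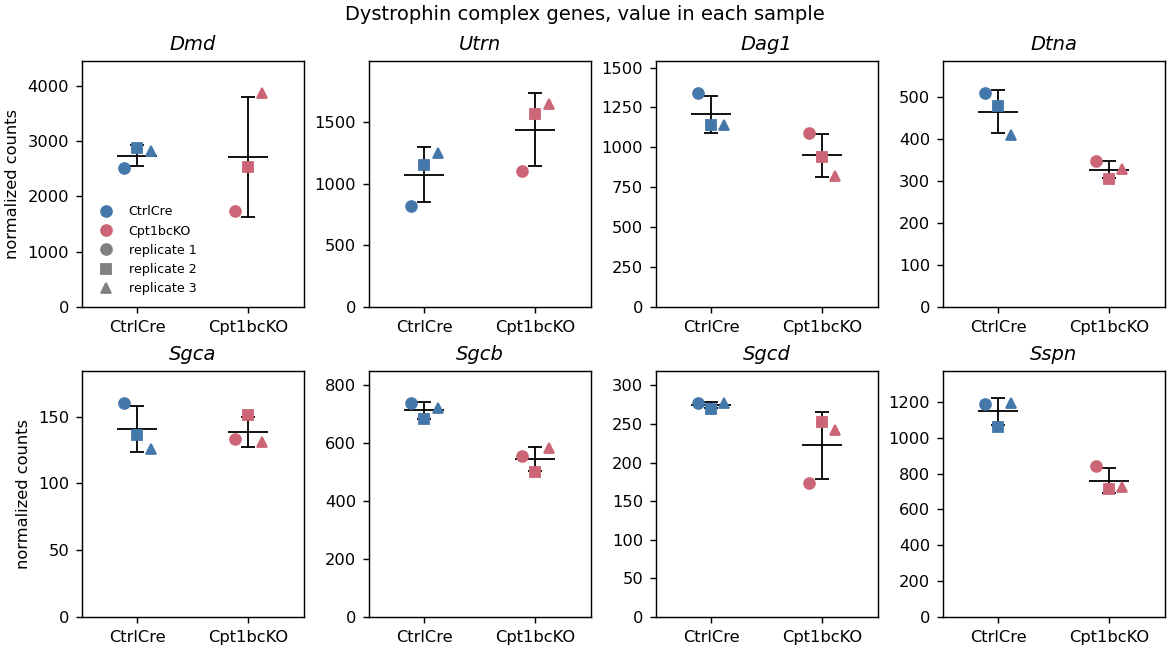
Normalized counts (vertical axis, from 0) of the 8 members in the 3 CtrlCre (blue) and 3 Cpt1bcKO (red) samples, with the replicate number as symbol and black bars for mean and SD. The groups separate in *Dag1*, *Dtna*, *Sgcb*, *Sgcd* and *Sspn*, where Cpt1bcKO is lower, and overlap in *Dmd*, *Utrn* and *Sgca*; *Dmd* runs from 1729 to 3868 within Cpt1bcKO.

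*Dmd* (chrX:82948903-85206141, plus strand, mm10) spans 2257 kb, with 84 merged exons in 14 annotated transcripts, and its gene-level value adds up the full-length and the shorter dystrophins. It was 2520, 2871 and 2823 in CtrlCre and 1729, 2531 and 3868 in Cpt1bcKO samples 1 to 3. The lowest and the highest of the 6 values were both Cpt1bcKO samples, and the coefficient of variation was 6.95% in CtrlCre and 39.9% in Cpt1bcKO. The log2 fold change was −0.09 (SE 0.245, 95% confidence interval −0.63 to 0.45, adjusted p = 0.906, limma). The interval reaches as low as the estimate for *Sspn* (−0.59), so equal expression is not shown. It was 0.14 without both samples numbered 1, 0.19 without Cpt1bcKO replicate 1 and −0.39 without Cpt1bcKO replicate 3.

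*Utrn* (chr10:12382188-12869365, minus strand) has 80 merged exons over 487 kb. It was 820, 1150 and 1250 in CtrlCre and 1099, 1567 and 1647 in Cpt1bcKO CMs. Cpt1bcKO samples 2 and 3 lay above all CtrlCre samples, whereas Cpt1bcKO sample 1 lay within their range. Mean values were 1073 ± 225 and 1438 ± 296 (SD, n = 3 each). This amounted to a log2 fold change of 0.42 (SE 0.204, 95% confidence interval −0.03 to 0.87, adjusted p = 0.392, limma), and it stayed between 0.24 and 0.60 when each sample was left out in turn.

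*Dag1* (chr9:108204634-108263958, minus strand) encodes the precursor that is cleaved into α-dystroglycan, the laminin receptor outside the cell, and β-dystroglycan, the membrane partner of dystrophin. Its values were 1340, 1138 and 1142 in CtrlCre and 1091, 939 and 822 in Cpt1bcKO CMs. The groups did not overlap, although the lowest CtrlCre value (1138) and the highest Cpt1bcKO value (1091) lay close together. The level was 21.5% lower (log2 fold change −0.35, SE 0.151), with an unadjusted p of 0.0429 and an adjusted p of 0.340 in limma.

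The sarcoglycans are membrane glycoproteins that assemble into a tetramer, in which the β and δ subunits form the core. *Sgcb* (chr5:73632749-73647790, minus strand) was 736, 680 and 720 in CtrlCre and 554, 499 and 581 in Cpt1bcKO CMs. Every Cpt1bcKO value was below the lowest control, and the log2 fold change of −0.39 (SE 0.135) corresponded to a level 23.6% lower (unadjusted p = 0.0161, adjusted p = 0.224, limma). *Sgcd* (chr11:46896253-47578965, minus strand) was 277, 270 and 277 in CtrlCre and 173, 253 and 242 in Cpt1bcKO CMs. The CtrlCre values differed by 1.47% (coefficient of variation), and Cpt1bcKO sample 1 was the lowest by far. The log2 fold change was −0.32 (SE 0.179, adjusted p = 0.455, limma) and −0.15 without Cpt1bcKO replicate 1.

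*Sgca* (chr11:94962791-94976327, minus strand), a subunit specific to striated muscle, was 160, 136 and 126 in CtrlCre and 133, 151 and 131 in Cpt1bcKO CMs. The values of the groups lay among each other. The log2 fold change was −0.02 (SE 0.176, 95% confidence interval −0.41 to 0.37, limma), so a shift as large as that of *Sgcb* lies within the interval. Whether the sarcoglycans differ in their response was not tested.

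*Sspn* (chr6:145931641-145965223, plus strand) encodes a small protein with 4 membrane spans that associates with the sarcoglycans. Its values were 1186, 1062 and 1192 in CtrlCre and 842, 716 and 725 in Cpt1bcKO CMs. The gap between the groups, from 842 to 1062, was wider than the range within either of them. The level was 33.7% lower (log2 fold change −0.59, SE 0.137, 95% confidence interval −0.90 to −0.29), with an unadjusted p of 0.00136 and an adjusted p of 0.0665 in limma. Without Cpt1bcKO replicate 1 the adjusted p was 0.0350, and it was 0.142 to 0.308 without any other single sample. The antisense gene *Sspnos* shares 69 exon bases with *Sspn*, but was listed at 9 or less in each of the 6 samples.

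*Dtna* (chr18:23415442-23659715, plus strand) encodes the dystrobrevin that binds dystrophin and the syntrophins on the cytoplasmic side. It was 508, 477 and 408 in CtrlCre and 347, 305 and 327 in Cpt1bcKO CMs. All Cpt1bcKO values were below all CtrlCre values. The level was 29.5% lower (log2 fold change −0.50, SE 0.150), with an unadjusted p of 0.00684 and an adjusted p of 0.159 in limma. The direction of *Sspn*, *Dtna*, *Sgcb*, *Dag1* and *Sgcd* was the same under each scaling and with each sample left out.

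A ratio of members within a sample does not depend on the size factor. The *Utrn* value was 32.5%, 40.1% and 44.3% of the *Dmd* value in CtrlCre samples 1 to 3 and 63.6%, 61.9% and 42.6% in Cpt1bcKO samples 1 to 3. Cpt1bcKO samples 1 and 2 had the highest ratios, and Cpt1bcKO sample 3 lay within the CtrlCre range. On the log2 scale the mean ratio was −1.37 ± 0.226 in CtrlCre and −0.86 ± 0.323 in Cpt1bcKO (SD, n = 3 each), a difference of 0.51 in an exact two-sided permutation test with p = 0.2 and an adjusted p of 0.817 over 7 ratios. With 3 samples against 3, an exact permutation test cannot give a p below 0.1.

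The ratios of the other 6 members to *Dmd* overlapped between the groups as well, with exact permutation p-values from 0.4 (*Sspn* and *Dtna*) to 1.0 (*Sgca*). Within Cpt1bcKO each of them was highest in sample 1 and lowest in sample 3, the samples with the lowest and the highest *Dmd*. The log2 ratio of *Sspn* to *Dmd* was −1.04, −1.82 and −2.41 in Cpt1bcKO samples 1 to 3, although *Sspn* itself lay between 716 and 842 there. In CtrlCre it was −1.09, −1.43 and −1.24. In each of the 7 ratios the range within Cpt1bcKO was wider than the difference between the group means.

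**Figure D2:**
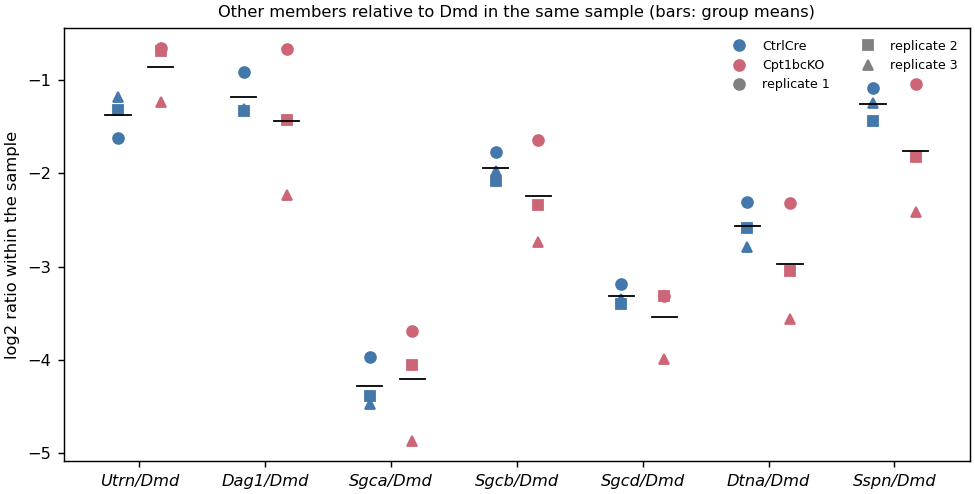
Log2 ratio of each of the other 7 members to *Dmd* in the same sample (vertical axis), for CtrlCre (blue) and Cpt1bcKO (red), with the replicate number as symbol and black bars for group means. The groups overlap in every ratio, and within Cpt1bcKO the ratios are lowest in sample 3, in which *Dmd* was 3868.

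To compare levels between genes, values were divided by the length of merged exons in kb. Per kb, *Sspn* was the highest member in CtrlCre CMs with 229.5 ± 14.7 normalized counts per kb, followed by *Dag1* (189.8 ± 18.2) and *Sgcb* (175.7 ± 7.12). *Dmd* had 115.0 ± 8.00, *Sgca* 81.1 ± 10.1 and *Utrn* 62.7 ± 13.2, and *Sgcd* (33.3 ± 0.490) and *Dtna* (27.4 ± 3.02) were lowest (SD, n = 3). In this order *Dag1* and *Sgcb* were not separated by their ranges, and neither were *Sgca* and *Utrn*. In Cpt1bcKO CMs the neighbours from *Sspn* (152.3 per kb) down to *Utrn* (84.0 per kb) all overlapped, and only *Utrn* from *Sgcd* (27.0 per kb) and *Sgcd* from *Dtna* (19.3 per kb) were separate.

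The order is set in part by the exon model. With the length of the longest annotated transcript in place of merged exons, *Dmd* reached 183.6 per kb in CtrlCre, next to *Sgcb* with 188.1, and *Dtna* (73.8) came before *Sgcd* (61.7). The CM-specific myosin *Myh6* had 18080 normalized counts per kb of merged exons in CtrlCre, against 229.5 for the highest member.

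**Figure D3:**
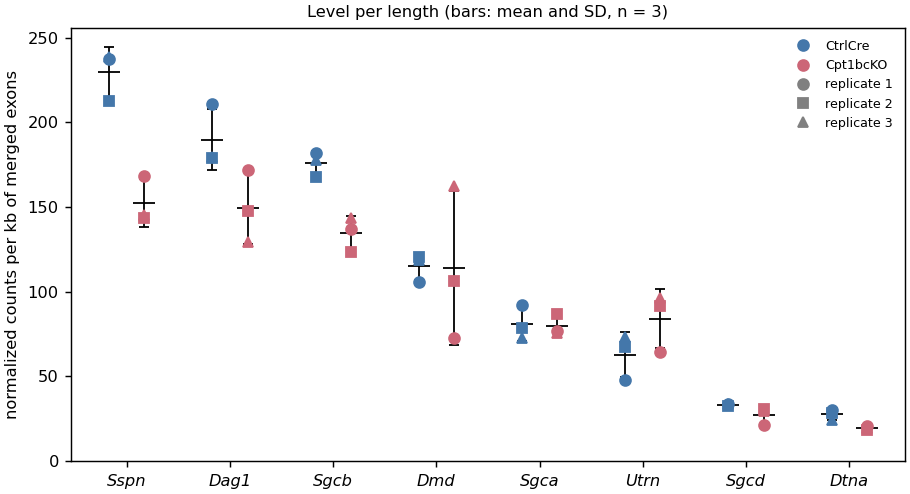
Normalized counts per kb of merged exons (vertical axis, from 0) for the 8 members in order of their CtrlCre mean, in CtrlCre (blue) and Cpt1bcKO (red), with black bars for mean and SD over 3 samples. *Sspn*, *Dag1* and *Sgcb* are the highest in CtrlCre at 229.5, 189.8 and 175.7 per kb, and the Cpt1bcKO values of *Dmd* spread over those of its neighbours.

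*Dmd* and *Utrn* have the longest transcripts of the 8, with 14.9 and 12.4 kb, and their values varied between samples of the same genotype. Relative to its own mean on the log2 scale, *Utrn* was −0.58, −0.09 and 0.03 in CtrlCre and −0.15, 0.36 and 0.43 in Cpt1bcKO samples 1 to 3. It was lowest in sample 1 of each group. The median over 261 genes with a longest transcript of 10 kb or more was −0.21, 0.11 and 0.06 in CtrlCre and −0.22, 0.11 and 0.15 in Cpt1bcKO, whereas that over 975 genes with transcripts under 2 kb was 0.22, −0.09 and −0.0046 and then 0.16, −0.13 and −0.13. Long transcripts as a class were thus lower in both samples numbered 1, and the part of this in the *Utrn* and *Dmd* values was not tested.

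**Figure D4:**
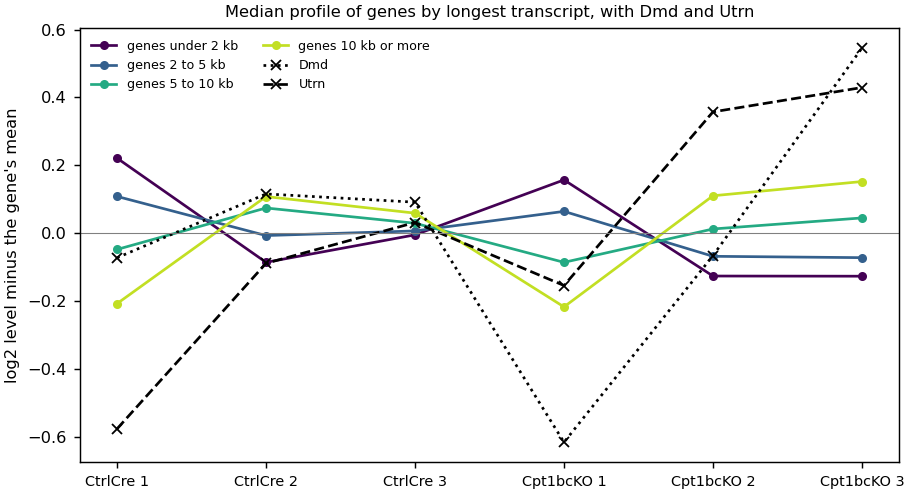
Log2(value + 1) minus the gene's own mean (vertical axis) in each of the 6 samples, as medians over genes grouped by longest transcript (lines with dots) and for *Dmd* (dotted) and *Utrn* (dashed). Genes of 10 kb or more are at −0.21 and −0.22 in the samples numbered 1 and above 0 in the other 4, and *Dmd* is at −0.62 in Cpt1bcKO sample 1 and at 0.55 in Cpt1bcKO sample 3.

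In 6797 genes whose mean reached 50, the profiles closest to *Dmd* over the 6 samples were those of *Smad3*, *Coq8a* and *Cacna1c*, with root mean square differences of 0.0742, 0.0975 and 0.101 on the log2 scale. The median gene differed from *Dmd* by 0.434, *Utrn* by 0.343 and the nearest other member, *Sgcd*, by 0.262. *Utrn* was matched most closely by *Ago2* (0.0609), *Cd2ap* (0.0628) and *Iws1* (0.0635). The mean profile of the 8 members was 0.13, 0.10 and 0.11 in CtrlCre and −0.22, −0.10 and −0.03 in Cpt1bcKO, and *Ier3ip1* (0.030), *Dnmbp* (0.0411) and *Tnrc6a* (0.0423) followed it most closely. These are descriptions over 6 samples that share their size factors.

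Beyond the 8 members, a list of 62 genes that bind, modify or back up the complex was examined, of which 58 were in the table and 54 were tested. In this list 24 genes were higher and 30 lower (median on the log2 scale −0.06), and 2 passed the adjusted threshold, both higher (*Sntb1* and *Bgn*), where 1.57% of all genes tested passed. At an unadjusted p below 0.05 in limma, 6 were higher (1 of them *Nos1*, which reached the filter through the Cpt1bcKO samples alone) and 8 lower, beside 6.66% and 7.22% of all genes, and these shares apply to the subgroups below as well.

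Among 16 tested partners on the inner and membrane side, 8 were higher, with *Nos1* among them, and 8 lower. *Sntb1*, which encodes β1-syntrophin, an adaptor that binds dystrophin and dystrobrevin, rose. It was 36, 38 and 34 in CtrlCre and 138, 94 and 71 in Cpt1bcKO CMs, so the lowest Cpt1bcKO value was well above the highest control. The log2 fold change was 1.41 (SE 0.264, adjusted p = 0.0269, limma). The call was lost, with an adjusted p of 0.0747 to 0.139, without any 1 of CtrlCre replicates 1, 2 or 3 or Cpt1bcKO replicate 2. *Sntb2*, which encodes β2-syntrophin, overlapped between the groups (47 to 110 against 65 to 110). Per kb of merged exons, *Sntb1* had 6.76 in CtrlCre and 19.0 in Cpt1bcKO, below the 27.4 and 19.3 of *Dtna*, and its range in Cpt1bcKO overlapped that of *Dtna*.

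*Cav3*, the muscle caveolin that binds dystroglycan, had a log2 fold change of −0.54 with overlapping groups (adjusted p = 0.350), and it was −0.31 without Cpt1bcKO replicate 2 and −0.80 without Cpt1bcKO replicate 1. The partners with the highest values, *Ank2*, *Plec* and *Cavin4*, had log2 fold changes of −0.31, 0.17 and 0.13 (adjusted p = 0.349, 0.621 and 0.806). *Nos1*, the neuronal nitric oxide synthase, was 0, 0 and 6 in CtrlCre and 12, 12 and 18 in Cpt1bcKO, a level of few reads. It reached the filter of 10 through the Cpt1bcKO samples alone, so its direction was fixed by the filter and no test is given, and it is named although it lies outside the rule for named genes, after its values were seen.

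Of 11 extracellular ligands of dystroglycan, 5 were higher and 6 lower (median −0.06). *Bgn* (biglycan), a small proteoglycan that binds α-dystroglycan and the sarcoglycans, rose from 228, 298 and 361 to 775, 724 and 554. All Cpt1bcKO values were above the controls, with a log2 fold change of 1.22 (SE 0.200, adjusted p = 0.0149, limma). Its adjusted p was 0.105 without Cpt1bcKO replicate 2 and 0.0653 without CtrlCre replicate 2. *Lama2*, the laminin α2 chain of the muscle basement membrane, was 737, 886 and 701 in CtrlCre and 359, 500 and 506 in Cpt1bcKO CMs. Its groups were separate too, at a log2 fold change of −0.78 (SE 0.175, adjusted p = 0.0612). *Agrn*, which encodes agrin, was 54, 122 and 87 against 130, 211 and 226 (log2 fold change 1.13, adjusted p = 0.120, and 0.0359 without Cpt1bcKO replicate 1). *Hspg2* (perlecan) and *Lamb2* had log2 fold changes of 0.40 and −0.18 (adjusted p = 0.448 and 0.642).

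Among 14 tested enzymes that build the laminin-binding sugar of α-dystroglycan, 4 were higher and 10 lower, and 0 passed the adjusted threshold in limma, with 1 lower (*B4gat1*, log2 fold change −0.46) at an unadjusted p below 0.05, beside 7.22% of all genes. *Pomgnt1*, an enzyme of the mannose-linked sugar chain, was 136, 114 and 114 in CtrlCre and 154, 117 and 106 in Cpt1bcKO CMs (log2 fold change 0.04). Of 7 tested genes of the integrin axis, the other laminin receptor system of CMs, 2 were higher and 5 lower, with 0 called and 2 lower at an unadjusted p below 0.05 (*Tln2* and *Lims1*, both −0.39), beside the same 7.22%. *Itgb1* and *Tln1* had log2 fold changes of −0.25 and 0.16. Of 6 membrane repair genes, 5 were higher and 1 lower, with 0 called and 2 higher at an unadjusted p below 0.05 (*Dysf* and *Myof*), beside 6.66% of all genes. *Dysf*, the dysferlin gene, was 282, 365 and 283 in CtrlCre and 411, 502 and 476 in Cpt1bcKO CMs (log2 fold change 0.58, adjusted p = 0.134), and *Trim72* and *Anxa6* had log2 fold changes of 0.02 and −0.33.

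**Figure D5:**
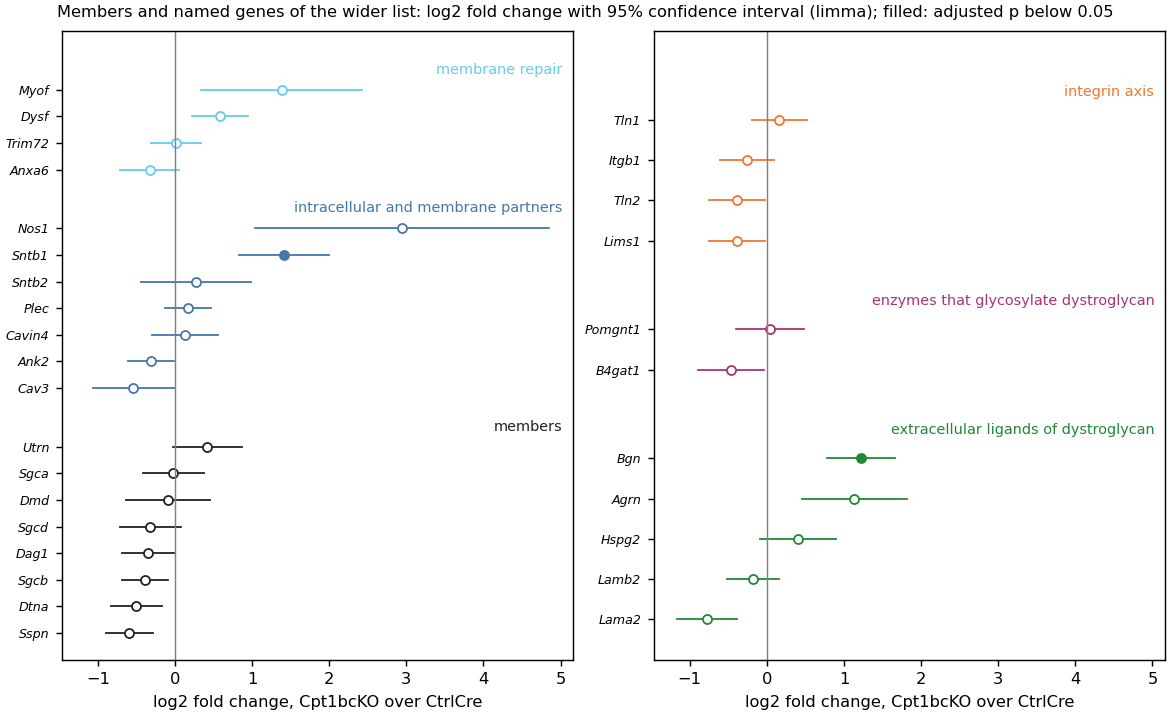
Log2 fold change of Cpt1bcKO over CtrlCre (horizontal axis) with its 95% confidence interval from limma, for the 8 members and the genes of the wider list named in the text, by subgroup, filled where the adjusted p is below 0.05. Only *Sntb1* and *Bgn* are filled, at 1.41 and 1.22, and 7 of the 8 members lie left of 0.

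Markers of the cell types that the preparation could hold were examined beside the members, and 2 of them, both of fibroblasts, passed the adjusted threshold. All 7 CM markers were lower in Cpt1bcKO (median −0.46 on the log2 scale, 0 called at an adjusted p below 0.05 and 2 lower at an unadjusted one, *Tnni3* at −0.996 and *Pln* at −0.85), and their summed value was 200149 to 257855 in CtrlCre and 147970 to 176974 in Cpt1bcKO. The median of the 8 members, −0.34, was nearer to 0 than that of the CM markers. The 3 most abundant of these, *Myh6*, *Ryr2* and *Tnnt2*, had log2 fold changes of −0.47, −0.42 and −0.22.

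All 5 tested fibroblast markers of 6 were higher, with a median of 1.12, and 2 passed the adjusted threshold, *Col1a1* (1.32) and *Lum* (1.46), each with an adjusted p of 0.0143 in limma. *Col1a2* (1.12, adjusted p = 0.0779) and *Dcn* (0.50, adjusted p = 0.340) did not. The *Col1a1* call was lost without Cpt1bcKO replicate 2 (adjusted p = 0.0859) and CtrlCre replicate 3 (0.0516), and the *Lum* call without Cpt1bcKO replicate 2 (0.0720), CtrlCre replicate 2 (0.0626) and CtrlCre replicate 3 (0.0643). The fibroblast sum was 383 to 533 in CtrlCre and 729 to 897 in Cpt1bcKO. *Bgn*, also made by fibroblasts, moved with them, and their part in the *Bgn*, *Sntb1* and *Utrn* values was not tested.

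Endothelial cells and pericytes express utrophin as well. The summed endothelial markers were 1082, 2064 and 2269 in CtrlCre and 2264, 2306 and 1971 in Cpt1bcKO, and those of smooth muscle and pericytes 605, 1599 and 1985 and then 1590, 1495 and 1099. *Kdr*, *Cdh5* and *Pecam1*, the most abundant of the former, had log2 fold changes of 0.40, 0.19 and 0.35, and *Rgs5*, *Pdgfrb* and *Myh11*, the most abundant of the latter, 0.15, 0.0047 and 0.74, and the groups of these 6 genes overlapped. Without CtrlCre replicate 1 these values were 0.012, −0.062 and −0.0074 for *Kdr*, *Cdh5* and *Pecam1* and −0.35, −0.48 and −0.40 for *Rgs5*, *Pdgfrb* and *Myh11*. Across the whole lists, 6 of 6 endothelial markers were higher, with 0 called and 1 (*Tie1*, log2 fold change 0.61, groups separate) at an unadjusted p below 0.05 in limma, and 4 of 6 smooth muscle and pericyte markers were higher and 2 lower (*Cspg4* at −0.66 and *Kcnj8* at −0.24), with 0 at an unadjusted p below 0.05. *Tie1*, *Cspg4* and *Kcnj8*, like *Sntb2*, *B4gat1*, *Lims1* and *Myof* above, lie outside the rule for named genes and were chosen after their values were seen. Both sums were lowest in CtrlCre sample 1, the sample with the lowest *Utrn* (820). Of the 28 markers of cells other than CMs, 26 were in the table and 23 were tested, 18 of them higher and 5 lower, with 2 called. Macrophage markers summed to 49 to 106 in CtrlCre and 84 to 91 in Cpt1bcKO (*Csf1r* 0.07, *C1qa* 0.35 and *Cd163* −0.28 on the log2 scale), and the Schwann cell markers in the table to 15 to 25 and 13 to 37. None of the defining markers in the table was at 0 in every sample, and the part of these cells in the member values was not tested.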

How the data were processed

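Adult ventricular CMs of 3 CtrlCre and 3 Cpt1bcKO samples were profiled by stranded total RNA-seq. The authors trimmed reads with Trimmomatic 0.36, aligned them to mm10 (GRCm38.p5) with STAR 2.5.4b, counted reads on exons with featureCounts 1.6.0 while excluding reads on several genes or places, and normalized with DESeq2 1.14.1 (versions from the submitters' processing notes). The deposited values were used as a score, since they are counts that the authors divided by size factors and rounded, so raw counts were not recovered and depth is known for 2 samples only. Columns of the authors' own comparison (6, with fold changes and p-values) were not used. The longest intron allowed in alignment was 200000 bases, and 2 introns of *Dmd* and 2 of *Sgcd* are longer in GENCODE vM21, whose models of these genes start or end elsewhere than the deposited ones; the effect on their values was not tested. The annotation release and the use of strand in counting are not given in the sources used here.

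Values were compared as log2(value + 1) with limma 3.58.1 in R 4.3.3 (lmFit and eBayes with trend) in genes with at least 10 in 3 samples, adjusted by Benjamini–Hochberg over all genes tested. Fold changes on this scale understate those of low genes. Ratios were tested by exact permutation (scipy 1.17.1). Lengths came from GENCODE vM21, to which 16427 genes (99.9%) were matched by identifier, and promoters from RefSeq. Gene coordinates are those of the deposited table. Steps were tested on simulated data with 200 genes changed, of which 169 were recovered beside 7 false calls. The median size of their estimates was 1.508 on the log2 scale, larger than that of any member. Recovery of shifts as small as those of the members was not tested. Members and lists were chosen with earlier results of these data known. Named genes are the members, genes of the wider and marker lists called with or without the replicate number in the model, the 3 most abundant of each subgroup, and the 3 closest profiles. Alternatives were other scalings, filters, pseudocounts (0.5 and 5), an untrended prior, a replicate block, and samples left out. Some named genes are not reported here. The length classes were examined after the data were seen.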

Additional observations from a re-analysis of the deposited data

How the results depend on the processing

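Scaling to the sum without mitochondrial-encoded and rRNA genes moved the median of all genes to 0.11 and the calls from 75 higher and 103 lower to 102 and 74; *Dmd* became 0.022 and *Sgca* 0.091, both below that shift, and 2 members were lower and *Utrn* higher at an unadjusted p below 0.05, as *Utrn* was also without CtrlCre replicate 3, Cpt1bcKO replicate 1 or both samples numbered 1 (limma). Without both samples numbered 1, *Dmd* was 0.14, *Sgca* 0.10 and 1 member was called, while the calls over all genes went from 178 of 11364 to 246 of 10835. Leaving out single samples gave −0.39 to 0.19 for *Dmd*, −0.095 to 0.076 for *Sgca*, 0 to 1 members called, 2 to 4 members lower at an unadjusted p below 0.05, 0 to 4 genes of the wider list called, 0 to 2 markers of other cells called and 40 to 305 of all genes called (178 with all samples). With 1 prior variance for all genes, 41 of all genes, 0 of the wider list, 1 marker and 0 members were called, and 2 members were lower at an unadjusted p below 0.05. The cause of these shifts was not tested.

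Deviations of same-numbered samples correlated across genes at 0.376, 0.255 and 0.068 for numbers 1, 2 and 3. For numbers 1 and 2 this was the highest correlation of either sample with the other group. CtrlCre sample 3 correlated best with Cpt1bcKO sample 2 (0.119). The labels give only a number, and the main fit did not treat the samples as pairs. A fit with the replicate block called 603 of all genes, 7 of the wider list (*Sntb1* and *Bgn* as before, and among the others *Lama2*, *Agrn*, *Cav3* and *Dysf* with adjusted p = 0.00826, 0.00545, 0.0465 and 0.0241) and 3 members (*Sspn*, *Utrn* and *Dtna*, adjusted p = 0.0112, 0.0392 and 0.0449, limma), and the same-numbered differences of the *Utrn* to *Dmd* ratio gave an exact p of 0.5 by sign flips. TMM factors, recomputed size factors, other filters and other pseudocounts kept each member's direction and its side of the adjusted threshold. Values near 10, such as those of *Nos1*, rest on few reads, and *Sgca* rests on about 195 and 101 reads in the 2 samples whose depth was resolved, so counting error adds to its spread.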
